A study of Mus musculus with 4 samples.

Results

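The interleukin-1 family genes described here are 9 of the 24706 mouse genes measured in each library. They were taken by gene symbol: the ligands Il1a, Il1b, Il1f9 and Il18, the receptor antagonist Il1rn, the decoy receptor Il1r2, and the signalling receptor chains Il1r1, Il1rap and Il18rap. Il1f9 is the older symbol of Il36g, which encodes interleukin-36 gamma. The data are 4 RNA-seq libraries from mouse myeloid cells, 2 labelled wt and 2 labelled cko. In the study, cko stands for PD-1f/f; LysM-Cre mice, and the wt libraries come from mice that it calls PD-1f/f in its results and wild-type in its methods. In the former naming both groups carry the floxed Pdcd1 gene and differ in the Cre. LysM-Cre is expressed from the Lyz2 locus in neutrophils, monocytes and macrophages, and is meant to remove PD-1, an inhibitory receptor, from these cells. The results of the study describe CD11b+ cells sorted from the liver of pups at postnatal day 3, whereas the methods describe RNA of whole liver at postnatal day 2 and no sort. Neither the labels nor the methods say whether animals were pooled or whether the libraries of a group came from separate animals. The sex-linked transcripts Ddx3y and Xist, given below, place the wt libraries in different animals. For the cko libraries this is not known, and their spread may be technical. The p-values measure only the spread between these libraries.

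Interleukin-1 is an early signal of inflammation, made mostly by myeloid cells after microbial or injury signals. Il1b encodes a precursor without activity that is cut by caspase-1 in the inflammasome or by neutrophil proteases, whereas the precursor of Il1a is active as made. Both ligands bind the receptor encoded by Il1r1, which recruits the accessory protein encoded by Il1rap and signals through MyD88 and IRAK kinases to NF-κB. The antagonist of Il1rn occupies the receptor without signalling, and the receptor of Il1r2 binds interleukin-1 but lacks the signalling domain. Neutrophils are known for high levels of this decoy.

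The transcripts of 6 of the 9 genes were more abundant in both cko libraries than in both wt libraries. These were Il1b, Il1f9, Il1rn, Il1r2, Il1rap and Il18rap. The other 3 genes, Il1a, Il18 and Il1r1, overlapped between the groups, and 0 genes were lower in both cko libraries. For comparison, 33.6% of the 10779 genes tested were higher and 18% were lower in both cko libraries. Only Il1f9 passed the threshold that the results of the study use, a log2 fold change beyond 1 in either direction with an unadjusted limma p under 0.01, which 1.88% of all genes passed upwards and 0.408% downwards. At the threshold of its methods, with a Benjamini-Hochberg adjusted p under 0.05, limma called 0 of the 9 genes and 0 of all genes, although 1768 of all genes had an unadjusted p under 0.05. In this family those were 4 (Il1b, Il1f9, Il1r2 and Il1rap), all higher in cko, beside 11.4% of all genes. The log2 fold change was above 0 in 8 of the 9 genes and in 60.4% of all genes tested. Its median was 0.86 over the 9 genes and 0.09 over all.

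How many of the 9 genes passed the study's unadjusted threshold depended on the processing. On the reads recovered from the values, limma with voom weights passed 3 genes (Il1b, Il1f9 and Il1r2), beside 1.62% of all genes passed upwards. The count was 2 (Il1f9 and Il1r2) with a pseudocount of 0.1 (background 1.99%) or a minimum mean of 5 FPKM (1.74%). It was 0 without the filter on low values (0.591%), with median-of-ratios scaling (1.35%) and with limma's variance prior without a trend (1.67%). With the replicate numbers as a block it was 1 (1.99%), with the numbers crossed 3 (2.76%), and with the p limit raised to 0.05 also 3 (3.15%). Without cko replicate 1 it was 5 (3.65%), the genes being Il1b, Il1f9, Il1rn, Il1r2 and Il1rap. Without cko replicate 2 it was 1, Il1r2, beside 1% of all genes. Without wt replicate 1 (1.04%) or wt replicate 2 (1.84%) it was 0.

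Depth did not differ greatly between the libraries, with 17691505 to 22212407 reads recovered from the FPKM steps, and the 9 genes held between 30 reads (Il18) and 20057 reads (Il1b) in a library. FPKM is a read number scaled by gene length and library total, so levels can be set side by side between genes, with 1 limit. The length is that of all annotated exons of a gene, 1907 bases for Il1b and 5535 bases for Il1rn. Where the transcripts present hold fewer of these exons, FPKM understates the level. Pdcd1 measured 28.5 and 34.7 FPKM in the wt and 17.1 and 21.4 FPKM in the cko libraries. This gave a log2 fold change of -0.69 (limma adjusted p = 0.218), and the reads of the floxed part alone were not analysed here. Lyz2, whose locus carries the Cre, measured 31306 and 32147 FPKM in wt against 10422 and 8127 FPKM in cko. The Y-linked gene Ddx3y reached 24.9 FPKM in wt replicate 2 and at most 0.00866 FPKM in the other libraries, a sign of male RNA in wt replicate 2. Xist, a transcript of female cells, measured 4.91 and 0.0119 FPKM in wt and 6.67 and 7.98 FPKM in cko. Sex thus differed within wt and was not balanced between the groups. The part of sex in the values of the family was not tested. Myeloid identity was plain in the markers, with a sum over 11 late neutrophil genes of 161036 and 136971 FPKM in wt and 110237 and 91586 FPKM in cko. Of these 11 genes, 8 were lower and 2 higher in both cko libraries. The sum of 5 early neutrophil genes was 1338 and 1256 FPKM in wt and 2018 and 1663 FPKM in cko. The 6 erythroid genes summed to 3329 and 2252 FPKM in wt and to 1360 and 1445 FPKM in cko, and each was lower in both cko libraries. All 4 B cell genes and 3 of 4 tested T and NK cell genes were lower in both cko libraries as well. Of 5 tested monocyte genes, 2 were higher and 1 lower in both cko libraries. The lower one, Ly6c2, was the most abundant, with 343 and 360 FPKM in wt and 333 and 315 FPKM in cko. Ccr2 and Fn1 overlapped between the groups. The higher ones ranked the libraries as Il1b did, Csf1r with 40.9 and 33.0 FPKM in wt and 45.6 and 113 FPKM in cko, and F13a1 with 44.1 and 34.1 FPKM in wt and 55.4 and 80.2 FPKM in cko. What part these shifts have in the values of the family was not tested. In such bulk samples, fewer cells of a type and less RNA per cell cannot be told apart.

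The bases before the transcription start are shown for 4 of the genes, to set the letters beside the levels. Il1b had the largest change, Il1f9 alone passed the threshold, Il1a is the neighbour of Il1b with overlapping groups, and Il18rap moved least of the genes with separate groups. Each window is the 250 bases upstream of the start on the gene's own strand, from RefSeq (GRCm38.p6): chr2:129371140-129371389 on the minus strand for Il1b, chr2:24186226-24186475 on the plus strand for Il1f9, chr2:129309973-129310222 on the minus strand for Il1a and chr1:40515112-40515361 on the plus strand for Il18rap. Capitals mark letters that match a searched motif.
Il1b: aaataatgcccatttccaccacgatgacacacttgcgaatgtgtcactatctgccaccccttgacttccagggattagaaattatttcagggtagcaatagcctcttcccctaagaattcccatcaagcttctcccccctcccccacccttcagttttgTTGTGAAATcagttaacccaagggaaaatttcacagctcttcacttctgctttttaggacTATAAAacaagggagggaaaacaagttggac
Il1f9: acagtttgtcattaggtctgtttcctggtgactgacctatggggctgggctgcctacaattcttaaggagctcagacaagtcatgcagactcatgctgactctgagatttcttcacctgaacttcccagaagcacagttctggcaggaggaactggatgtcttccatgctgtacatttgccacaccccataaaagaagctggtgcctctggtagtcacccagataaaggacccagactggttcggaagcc
Il1a: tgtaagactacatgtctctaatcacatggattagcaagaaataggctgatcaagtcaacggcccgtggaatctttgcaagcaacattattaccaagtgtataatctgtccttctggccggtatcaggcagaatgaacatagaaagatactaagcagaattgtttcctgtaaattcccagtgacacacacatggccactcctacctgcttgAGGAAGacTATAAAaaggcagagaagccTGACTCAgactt
Il18rap: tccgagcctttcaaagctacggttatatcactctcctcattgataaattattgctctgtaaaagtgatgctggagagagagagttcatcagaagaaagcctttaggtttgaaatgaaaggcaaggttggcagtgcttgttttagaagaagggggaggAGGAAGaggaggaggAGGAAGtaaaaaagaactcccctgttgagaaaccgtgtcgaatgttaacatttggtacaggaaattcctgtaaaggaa
The motifs were those of NF-κB (its consensus by name), AP-1 (TGANTCA), C/EBP (TTNNGNAAT), ETS factors such as PU.1 (AGGAAG) and the TATA box (TATAAA), on both strands. The TATA box was added after the sequences were seen. In Il1b, a C/EBP match ended 83 bases and a TATA match 26 bases before the start. Il1a held a TATA match 27 bases, an ETS match 35 bases and an AP-1 match 6 bases before the start, the first at nearly the same place as in Il1b. The window of Il18rap held ETS matches at 88 and 73 bases, and that of Il1f9 held none of the 5 motifs.

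Over all 12 starts that RefSeq lists for the 9 genes, C/EBP matched at 4 starts, in 3 genes. The ETS motif matched at 3 starts, the TATA box at 3, AP-1 at 2 and NF-κB at 1, each in as many genes. Shares of all promoters count single windows and so stand beside the starts, not the genes. Among 32851 mouse promoters of the same length, 10.2% held the C/EBP motif, 29.5% the ETS motif, 12.4% the TATA box, 6.75% the AP-1 motif and 7.25% the NF-κB motif. The NF-κB match lay 223 bases before the second start of Il1r1, where it shared bases with a C/EBP match. Il1rn had an AP-1 match 135 bases before its first start and a C/EBP match 56 bases before its last. The TATA match of Il18 lay 170 bases before its start, on the strand opposite to the gene. No motif was found in the window searched for Il1r2, chr1:40085843-40086092. That window lies inside the span of the gene given below, and 108 of its 250 bases are in exons of Il1r2. These matches describe letters in a short window and say nothing of binding.

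**Figure D1:**
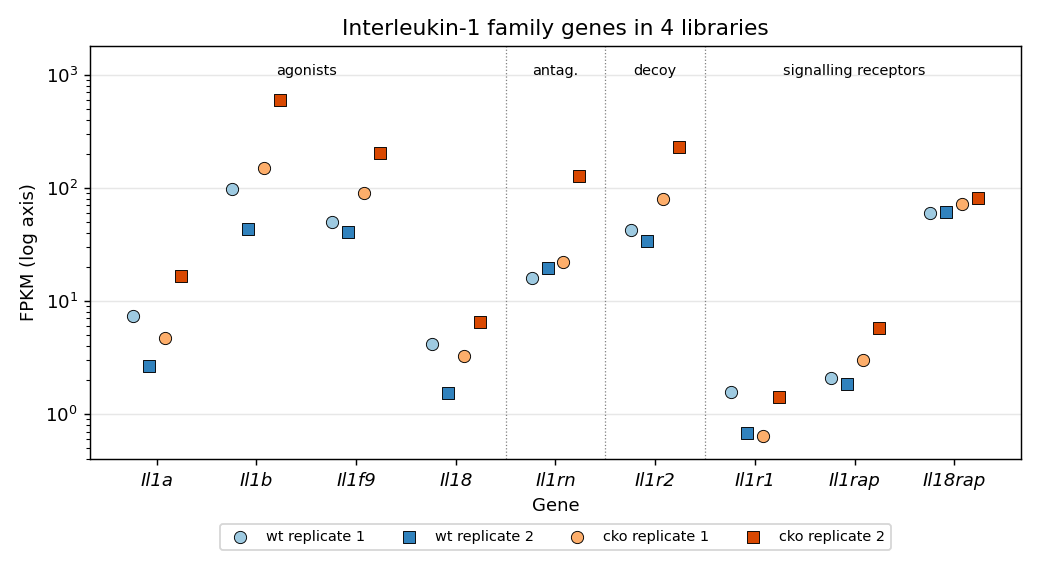
FPKM (vertical log axis) of the 9 genes in each of the 4 libraries, ordered by role from agonists to the antagonist, the decoy receptor and the signalling receptors; circles are replicate 1 and squares replicate 2, blue for wt and orange for cko. Il1b spans 43.2 FPKM in wt replicate 2 to 594 FPKM in cko replicate 2, and 8 of the 9 genes are highest in cko replicate 2.

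Among the ligands, Il1b was at 98.1 FPKM in wt replicate 1 (4155 reads), 43.2 FPKM in wt replicate 2 (1552 reads), 151 FPKM in cko replicate 1 (5407 reads) and 594 FPKM in cko replicate 2 (20057 reads). Both cko libraries lay above both wt libraries, but the libraries within each group were far apart. The wt libraries differed by 2.27-fold and the cko libraries by 3.93-fold. Against the wt mean, cko replicate 1 was 2.14-fold and cko replicate 2 8.41-fold higher. The log2 fold change was 2.19 (SE 0.70, 95% interval 0.45 to 3.92, limma adjusted p = 0.250), which ranked 33 among all 10779 genes. It was 1.20 without cko replicate 2 and 3.17 without cko replicate 1. Il1b (ENSMUSG00000027398) has 7 exons in its principal transcript and lies on the minus strand of chr2:129364570-129371139. An antisense gene, Il1bos, shares exon bases with it and measured 0.842 to 3.95 FPKM, and since the strand setting of the counting is not given in the sources used here, reads of the 2 cannot be told apart.

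Il1f9, whose product is a ligand of the interleukin-36 branch, rose from 50.0 and 40.4 FPKM in wt to 89.9 and 202 FPKM in cko. Its reads were 1830 and 1253 in wt and 2777 and 5900 in cko. The wt libraries were close, and the lower cko library was 1.99-fold above their mean. The log2 fold change was 1.57 (SE 0.38, 95% interval 0.61 to 2.52, limma adjusted p = 0.214). The unadjusted limma p, from the variance moderated across all genes, was 0.00746. Without cko replicate 2 the log2 fold change was 0.98, under the fold limit. Without wt replicates 1 and 2 the log2 fold change was 1.72 and 1.41. In these 3 cases the gene no longer passed the threshold. The gene (ENSMUSG00000044103) has 1 annotated transcript of 5 exons on the plus strand of chr2:24186476-24193568.

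Il1a and Il18 were low and behaved alike. Il1a measured 7.39 and 2.66 FPKM in wt and 4.70 and 16.7 FPKM in cko. Il18, which encodes the ligand that drives interferon gamma in lymphocytes, measured 4.19 and 1.55 FPKM in wt and 3.26 and 6.47 FPKM in cko. In both genes cko replicate 1 lay between the wt libraries and cko replicate 2 above them. Log2 fold changes were 0.86 for Il1a (SE 0.63, 95% interval -0.71 to 2.42) and 0.63 for Il18 (SE 0.43, 95% interval -0.44 to 1.71), with limma adjusted p-values of 0.516 and 0.486. For Il1a it was 0.04 without cko replicate 2, and for Il18 it was 0.12 without wt replicate 2. Il18 rested on 30 to 118 reads and Il1a on 99 to 584. Il1a lies at chr2:129299610-129309972 on the minus strand and shares exon bases with Gm14023, a transcript of the other strand at 0.0506 to 1.56 FPKM, and Il18 lies at chr9:50554827-50581840 on the plus strand.

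The sum of 10 macrophage genes was also highest in cko replicate 2 and wt replicate 1, with 392 and 266 FPKM in wt and 269 and 452 FPKM in cko. Without Marco, which measured 44.0 and 24.3 FPKM in wt and 30.8 and 94.0 FPKM in cko, it was 348 and 241 FPKM in wt and 238 and 358 FPKM in cko. Only 2 of the 10 genes, Marco and Cd5l, ranked the libraries exactly as Il1a and Il18 did, and 5 were highest in wt replicate 1. Of the 10 genes, 1 was higher in both cko libraries, 9 overlapped and 0 were listed at 0. The most abundant, C1qa, measured 118, 91.8, 86.5 and 140 FPKM in wt replicates 1 and 2 and cko replicates 1 and 2. The part of macrophage RNA in the levels of Il1a and Il18 was not tested.

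Il1rn, the natural antagonist, measured 16.1 and 19.6 FPKM in wt and 22.0 and 128 FPKM in cko, with 1981, 2047, 2282 and 12496 reads. The groups were separate, but the size of the difference rested on cko replicate 2. That library was 7.14-fold and cko replicate 1 1.23-fold above the wt mean, and the cko libraries differed by 5.80-fold, the widest such gap in the family. The log2 fold change was 1.53 (SE 0.76, 95% interval -0.36 to 3.43, limma adjusted p = 0.372). It was 0.29 without cko replicate 2 and 2.77 without cko replicate 1. Il1rn (ENSMUSG00000026981) lies on the plus strand of chr2:24336853-24351494 and has 6 annotated transcripts, some secreted and some intracellular, which FPKM per gene does not separate.

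Il1r2, the decoy receptor, measured 42.2 and 34.1 FPKM in wt and 80.1 and 228 FPKM in cko, from 1789, 1224, 2864 and 7692 reads. The wt libraries were close to each other, and cko replicates 1 and 2 were 2.10-fold and 5.97-fold above their mean. The log2 fold change was 1.81 (SE 0.48, 95% interval 0.62 to 2.99), ranked 74 of all genes. Its unadjusted limma p was 0.0103, just above the threshold, and its adjusted p was 0.214. The log2 fold change was 1.06 without cko replicate 2 and 2.56 without cko replicate 1. The gene (ENSMUSG00000026073) has 9 exons on the plus strand of chr1:40074079-40125231.

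The signalling chains moved less than the decoy. Il1r1 was the least abundant of the 9 genes in every library, at 1.58 and 0.676 FPKM in wt and 0.637 and 1.41 FPKM in cko (76 to 223 reads). Its log2 fold change was -0.06 (SE 0.35, 95% interval -0.95 to 0.82, limma adjusted p = 0.942), and it was positive when wt replicate 1 or cko replicate 1 was left out, at 0.25 and 0.21. The order of the libraries followed that of Il1a, Il18 and the macrophage sum in part, with wt replicate 1 and cko replicate 2 high.

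Il1rap, which serves the receptors for interleukin-1, interleukin-33 and interleukin-36, measured 2.10 and 1.83 FPKM in wt and 3.02 and 5.75 FPKM in cko. The groups were separate, by a small margin for cko replicate 1. This gave a log2 fold change of 0.81 (SE 0.29, 95% interval 0.08 to 1.55, limma adjusted p = 0.273) with a range of 0.44 to 1.19 as each library was left out. Il18rap, the accessory chain of the interleukin-18 receptor, was by contrast abundant and even, at 59.8 and 61.3 FPKM in wt and 71.9 and 82.0 FPKM in cko (7791 to 9795 reads). Its log2 fold change of 0.34 (SE 0.14, 95% interval -0.02 to 0.69, limma adjusted p = 0.318) was small but had the narrowest interval of the 9 genes. Leaving out each library gave 0.24 to 0.43. The log2 fold change of Il18rap was 0.23 with median-of-ratios scaling and 0.24 with quantile scaling, so its size depended on the scaling.

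**Figure D2:**
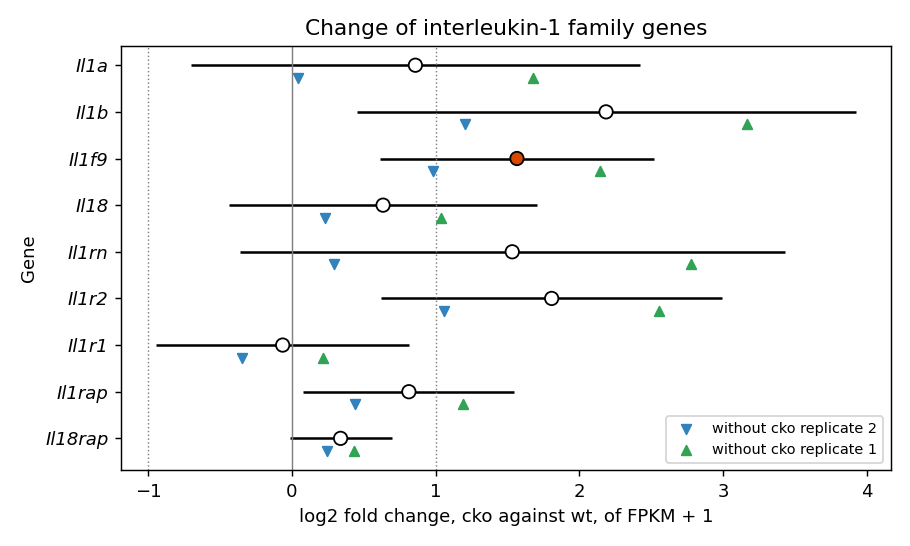
Log2 fold change of FPKM + 1, cko against wt (horizontal axis), of each of the 9 genes; circles with lines are the limma estimate and its 95% interval, the filled circle is the gene past the threshold, and dotted lines mark log2 fold changes of -1 and 1. Triangles give the estimate without cko replicate 2 (blue) or cko replicate 1 (green), which for Il1rn are 0.29 and 2.77 and for Il18rap 0.24 and 0.43.

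By level, Il1b was the most abundant of the 9 genes in 3 libraries and Il18rap in the other, wt replicate 2. In every library the 5 highest genes were Il1b, Il18rap, Il1f9, Il1r2 and Il1rn, and Il1r1 was the lowest. Il18rap passed from the first or second place in the wt libraries to the fourth in cko replicate 1 and the fifth in cko replicate 2.

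The cko libraries were not equal. Of the 9 genes, 8 had their highest value in cko replicate 2, against 33.8% of all genes tested, and cko replicate 1 was above both wt libraries in 6. In 7 of the 9 genes wt replicate 1 was above wt replicate 2, a count for which the share of all genes was not taken. The number of genes with all cko above all wt libraries was 6 without cko replicate 2 (46.7% of all genes tested), 8 without cko replicate 1 (47.3%), 8 without wt replicate 1 (44.3%) and 6 without wt replicate 2 (47.9%).

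The balance between members was read from FPKM ratios within a library, which do not depend on its total. The ratio of Il1r2 to Il1r1, decoy to signalling receptor, was 26.8 and 50.4 in wt and 126 and 161 in cko. The groups did not overlap, and the log2 difference of cko from wt was 1.96, with an exact two-sided permutation p of 0.333, the smallest that 2 libraries against 2 can give. Leaving out each library gave differences of 1.50 to 2.41. The denominator rested on 76 to 223 reads.

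The ratio of Il1b to Il1rn, agonist to antagonist, was 6.09 and 2.2 in wt and 6.88 and 4.66 in cko. These ranges overlapped, and the difference of 0.63 on the log2 scale (exact two-sided permutation p = 0.667) became -0.11 without wt replicate 2. The difference lay between -0.11 and 1.36 as each library was left out.

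Other ratios are given as a description. Il1b to Il1a was 13.3 and 16.2 in wt and 32.2 and 35.6 in cko, so that these neighbours shifted unequally and the libraries within a group were close. Il1r2 to Il1rap was 20.1 and 18.6 in wt and 26.6 and 39.7 in cko. For the interleukin-18 axis, Il18rap to Il18r1 (the ligand-binding chain) was 27.7, 17.3, 21 and 24.8, with overlapping groups. Il18 to Il18bp, whose product binds and blocks interleukin-18, was 0.636 and 0.316 in wt and 0.953 and 1.26 in cko.

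**Figure D3:**
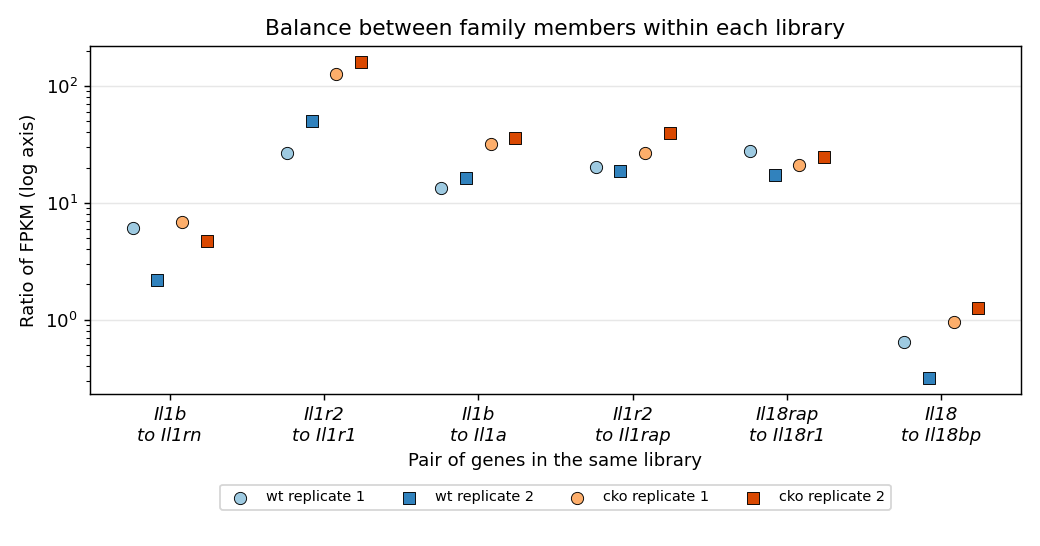
Ratio of the FPKM of 2 genes in the same library (vertical log axis) for 6 pairs, with wt in blue and cko in orange, circles for replicate 1 and squares for replicate 2. The ratio of Il1r2 to Il1r1 is 26.8 and 50.4 in wt and 126 and 161 in cko, whereas that of Il1b to Il1rn overlaps between the groups.

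Most of the genes lie in gene clusters. Il1r2, Il1r1, Il1rl2, Il1rl1, Il18r1 and Il18rap, all on the plus strand, lie within 478 kb of chromosome 1. Their levels did not move together. Il1r2 at the first and Il18rap at the last place were abundant, and the 4 genes between them stayed at 0.451 to 3.55 FPKM. Il1rl2, which encodes the receptor of interleukin-36 and so of the Il1f9 product, measured 0.648 and 0.655 FPKM in wt and 1.39 and 1.54 FPKM in cko. Its groups were separate, with a log2 fold change of 0.58 (SE 0.25, limma adjusted p = 0.332). Il1rl1, the interleukin-33 receptor, and Il18r1 overlapped between the groups.

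On chromosome 2, Il1f9 and Il1rn frame 165 kb in which Il1f6 and Il1f5 lie. These had 0 reads in both wt libraries and 1 and 2 reads in 1 cko library each. Il1a and Il1b lie within 71.5 kb on the same strand, and in cko replicate 2 their levels differed by 35.6-fold.

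**Figure D4:**
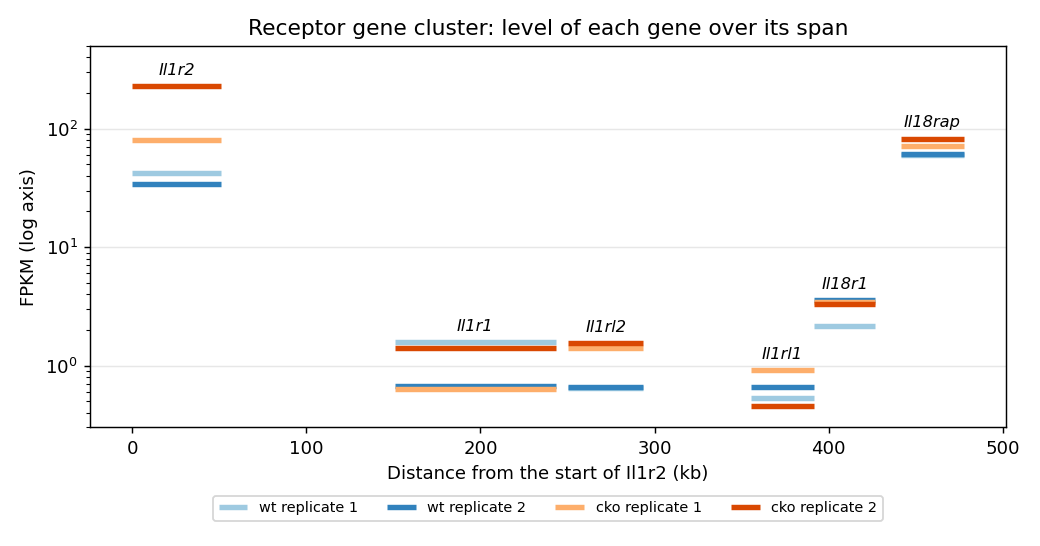
FPKM (vertical log axis) of the 6 genes of the receptor cluster on chromosome 1 against their distance in kb from the start of Il1r2, each line spanning 1 gene in 1 library, blue for wt and orange for cko. Il1r2 reaches 228 FPKM and Il18rap 82.0 FPKM in cko replicate 2, and the 4 genes between them lie at 0.451 to 3.55 FPKM.

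To see which genes had a profile like that of Il1b, log2(FPKM + 1) was centred for each gene over the 4 libraries and the root mean square difference was taken. The nearest of all tested genes were Socs3 (0.0922), a brake on cytokine signalling, Icam1 (0.115), an adhesion molecule, Ptgs2 (0.196), the inducible cyclooxygenase, Ccl3 (0.200), a chemokine, and Cd274 (0.219), which encodes PD-L1. Cd274 measured 3.29 and 0.293 FPKM in wt and 4.18 and 22.9 FPKM in cko. For Il1r2 the nearest were Ier3 (0.0303), Cass4 (0.0727), Ccl2 (0.0899) and Sod2 (0.0944). Il1f9 stood at place 12 for Il1r2 and at place 55 for Il1b, and Il1r2 at place 30 for Il1b. Il18rap and Il1r1 were far from both, Il18rap at places 2137 and 2062 and Il1r1 at places 3084 and 4602 for Il1b and Il1r2. With 4 libraries such distances are a description.

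The wider pathway was followed with 62 genes in 4 lists, of which 49 were tested. In these, 34 genes were higher and 0 lower in both cko libraries, beside the 33.6% and 18% of all genes given above. 7 passed the threshold upwards and 0 downwards, beside 1.88% and 0.408% of all genes, and the median log2 fold change was 0.50. The same shares of all genes apply to the counts of each list below. The lists were written with earlier results of these data known, so these counts are a description. Among all genes that passed, 82.2% were higher in cko, and this share was 69.2% after median-of-ratios scaling.

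All 7 genes that passed were among the 15 tested genes known to respond to interleukin-1, many of which are also induced by other inflammatory signals. These 15 had a median log2 fold change of 1.97, and 13 were higher in both cko libraries. This list, too, was written with earlier results of these data known, so its counts and median are a description. Cxcl2, a neutrophil chemokine, rose from 38.0 and 27.3 FPKM in wt to 110 and 449 FPKM in cko. Bcl3, an atypical IκB protein, rose as well, with 2.78 and 2.17 FPKM in wt against 9.90 and 17.9 FPKM in cko (log2 fold change 2.05, SE 0.30). The other 5 were Ccl2 (1.98), Nfkbia (1.48) and Tnfaip3 (2.19), which encode a monocyte chemokine and brakes on NF-κB, and Sod2 (1.99) and Saa3 (2.39), which encode a mitochondrial superoxide dismutase and an acute-phase protein. Saa3 rested on 30 and 2 reads in wt and 125 and 514 reads in cko. Of genes that did not pass, Icam1 had a log2 fold change of 2.38, Nfkbiz 0.92, Lcn2 0.45 and Tnip1 0.41. Lcn2 is also counted among the late neutrophil markers.

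The genes of ligand maturation and release shifted less. All 14 tested had a log2 fold change above 0, 9 were higher in both cko libraries, 0 passed, and the median was 0.40. The neutrophil proteases of Elane, Prtn3 and Ctsg can cut interleukin-1 precursors and are also markers of early neutrophils. The most abundant genes of the list were Elane and Prtn3. Elane measured 617 and 646 FPKM in wt and 945 and 749 FPKM in cko, and Prtn3 267 and 250 FPKM in wt and 538 and 450 FPKM in cko. Ctsg had a log2 fold change of 0.35, and Gsdmd, the pore protein through which interleukin-1β leaves the cell, one of 0.09 at 148 to 172 FPKM. Chosen after their values were seen, Nlrp3 measured 4.86 and 4.47 FPKM in wt and 7.46 and 14.9 FPKM in cko, and Casp1, which encodes the enzyme that cuts the precursor, measured 23.8 and 18.0 FPKM in wt and 19.7 and 33.5 FPKM in cko. The sensor gene Nlrp3 thus had separate groups and Casp1 did not.

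In the receptor signalling list, 15 of 16 tested genes had a log2 fold change above 0, 11 were higher in both cko libraries, 0 passed, and the median was 0.40. Myd88, the adaptor of the receptor complex, had the highest level, with 81.0 and 83.1 FPKM in wt and 125 and 206 FPKM in cko. Its log2 fold change was 0.96 (SE 0.25, limma adjusted p = 0.214), short of the fold threshold. Irak2 (0.54) and Irak3 (0.37), an active and an inhibitory member of the IRAK kinases, overlapped between the groups, and Tollip, an inhibitory adaptor, had 0.20.

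Of the remaining family, 4 of 12 genes were tested, 1 was higher in both cko libraries, 0 passed, and the median log2 fold change was 0.11. Il18bp had -0.36, Sigirr, an inhibitory receptor, 0.02, and Il18r1 0.20. Il1f8 had 1 read in 1 cko library, and no measured gene carried the symbols Il1f10, Il1rapl1 or Il1rapl2.

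**Figure D5:**
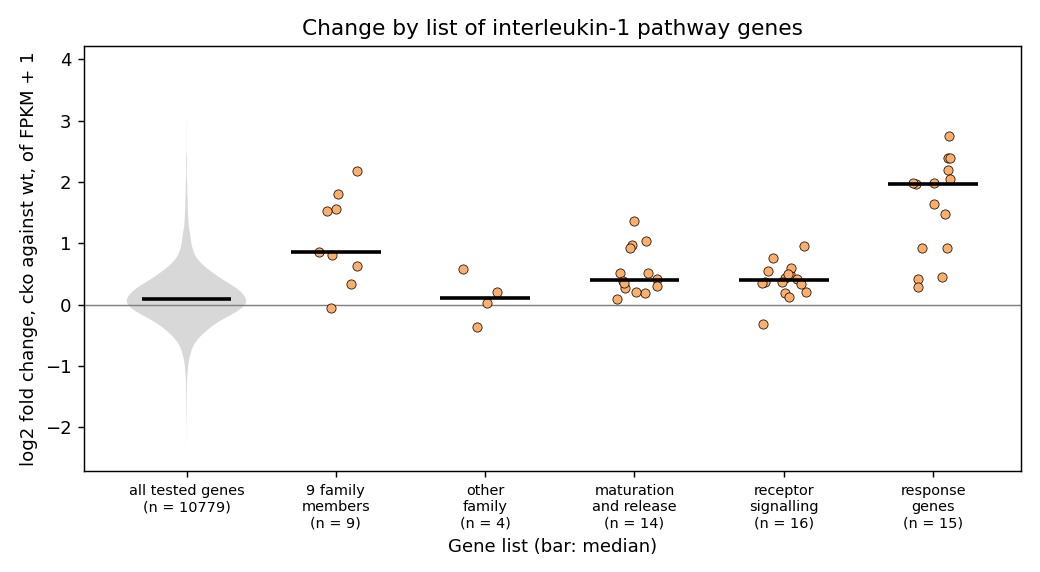
Log2 fold change of FPKM + 1, cko against wt (vertical axis), for all 10779 tested genes (grey, width shows density), the 9 family members and the 4 pathway lists; each point is 1 gene and bars are medians. The medians are 0.09 for all genes, 0.86 for the 9 members, 0.11, 0.40 and 0.40 for the other family, maturation and signalling lists and 1.97 for the response genes. The members and lists were chosen with earlier results of these data known.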

How the data were processed

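Processed RNA-seq values of 4 libraries, 2 wt and 2 cko, were grouped by the labels. The authors deposited 1 FPKM value per gene and library for 24706 genes, 1 library per file. The submitters' processing notes name Bowtie2 2.2.3, TopHat2 2.0.12, HTSeq 0.6.0 and the build mm9, whereas the start and end of 92.7% of the genes matched GENCODE M21 for GRCm38, the build of all positions given here. Strand setting and filters are not given in the sources used here. Of the 3103 to 3933 values of single-exon genes in a library, at least 99.9% were whole multiples of 1 read (within 0.02 of a read), which gave back 17691505 to 22212407 reads per library and the reads of 91.3% of the genes. Per read, 1 kb of gene length is worth 0.0450 to 0.0565 FPKM.

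Groups were compared with limma 3.58.1 in R 4.3.3 (lmFit, eBayes with a trend, no covariate) on log2(FPKM + 1) for the 10779 genes whose mean reached 1 FPKM, with Benjamini-Hochberg adjustment over all of them. All 9 members passed this filter. The pseudocount of 1 understates fold changes of low genes. Ratios were compared by an exact two-sided permutation test over libraries. The fit was tested on simulated reads, drawn independently for each gene with a common dispersion. Such a test does not cover shifts that many genes share in a library. Alternatives were pseudocounts of 0.1 and 0.01, no filter on low values, a mean of 5 FPKM as the minimum, scaling by median-of-ratios or quantiles, no trend, voom on the recovered reads of genes averaging at least 10, the replicate number as a block, and each library left out. A crossed block, an unadjusted p under 0.05 and the separation of the groups without each library were added after seeing the data.

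The members, gene lists and tests were chosen with earlier results of these data known. Genes named are the 9 members, Pdcd1 and Lyz2, pathway genes past the threshold and up to 4 others per list with the highest mean FPKM, and the 5 genes nearest to Il1b and to Il1r2, of which 1 is not reported here. Ddx3y, C1qa, Marco, Cd5l, Csf1r, F13a1, Il1rl1, Il1f5, Il1f6, Il1f8, the genes sharing bases with members, Nlrp3 and Casp1 were named after their values were seen. Xist, Ly6c2, Ccr2 and Fn1 were also named after their values were seen. Python 3.11.15 and, for the figures, matplotlib 3.10.9 were used.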

Additional observations from a re-analysis of the deposited data

How the results depend on the processing

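Of 123 log2 fold changes of the 9 genes over 14 alternatives, 104 kept their direction and side of the threshold, 11 newly passed, 6 no longer passed and 2 reversed, and the causes were not tested. Il1f9 no longer passed without the filter (1.57), with median-of-ratios scaling (1.46) or without the trend (1.57). Il1b newly passed with voom (2.19), and Il1r2 with a pseudocount of 0.1 (1.83), a minimum mean of 5 FPKM (1.81) and voom (1.82). With the minimum of 5 FPKM, Il1rap, Il1r1 and Il18 had no value. The number of the 9 genes that passed was 2 with the pseudocount of 0.1 and with the minimum of 5 FPKM. It was 0 without the filter, with median-of-ratios scaling and without the trend. With voom it was 3, and also 3 at an unadjusted p under 0.05 with the fold limit kept. The 7 pathway genes higher in cko became 1 without the filter (0.591% of all genes) and 4 with median-of-ratios scaling (1.35%). They became 2 without the trend (1.67%) and 11 at an unadjusted p under 0.05 with the fold limit kept (3.15%). The shares for the blocks and for each library left out are given above beside the counts of the 9 genes.

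Leaving out each library in turn leaves a lone library in a group, which limma assumes to vary like the others. The log2 fold changes then ranged from 1.20 to 3.17 for Il1b, 0.98 to 2.15 for Il1f9, 0.04 to 1.68 for Il1a, 0.12 to 1.15 for Il18, 0.29 to 2.77 for Il1rn, 1.06 to 2.56 for Il1r2, 0.44 to 1.19 for Il1rap, 0.24 to 0.43 for Il18rap and -0.38 to 0.25 for Il1r1. Il1r1 was reversed without wt replicate 1 (0.25) and without cko replicate 1 (0.21), and the log2 ratio difference of Il1b to Il1rn without wt replicate 2 (-0.11), in a range of -0.11 to 1.36. The range was 1.50 to 2.41 for Il1r2 to Il1r1, 6 to 8 for genes with all cko above all wt libraries, 0 to 5 for members that passed (5 without cko replicate 1, 0 without either wt replicate, 1 without cko replicate 2), and 1 to 16 for pathway genes higher in cko (16 without cko replicate 1, 1 without either wt replicate).

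Deviations of libraries with the same replicate number correlated at -0.163 across genes, which gave no sign of pairing by number. With 2 libraries in each group this value cannot exclude pairing. With the replicate block 1 member passed (Il1f9, 1.57, limma adjusted p = 0.330), with 6 pathway genes higher. With the crossed replicate block, 3 members and 11 pathway genes passed, Il1b (2.19) and Il1r2 (1.81) among the members.

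Depth limited Il1r1 and Il18 most, which had as few as 76 and 30 reads in a library.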
